A study of Homo sapiens with 48 samples.

Results

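The 10 genes described here encode carriers that move amino acids across the plasma membrane, and they were taken by symbol from the 58302 genes of a count table of 48 RNA-seq libraries. The members are SLC7A5, SLC7A6, SLC7A11, SLC3A2, SLC7A1, SLC1A4, SLC1A5, SLC38A1, SLC38A2 and SLC43A1. All 10 were found, and all 10 passed the filter on low counts in every fit. The libraries came from AMO1, a human multiple myeloma line labelled as a plasma cell tumour, in which shRNAs were switched on with doxycycline. There were 4 clones, shIRE1 clone 1, shIRE1 clone 3, shXBP1 clone 1 and shXBP1 clone 18, and each was a single clone with an integrated set of shRNAs against IRE1 (the gene ERN1) or XBP1. Each clone was sampled without treatment (0 h) and after 24, 48 and 72 h in 0.2 µg/ml doxycycline, with 3 replicate libraries of the same clone at each time. A p-value thus measures the spread between replicates of 1 clone, and the labels do not say how the replicates were grown. The untreated libraries carried the same shRNA constructs, no library with a non-targeting shRNA was analysed here, and an effect of doxycycline or of time in culture cannot be told apart from an effect of the knockdown.

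Proliferating cells and cells that secrete much protein draw on several carrier systems at once. SLC7A5 (LAT1) brings in large neutral amino acids such as leucine in exchange for glutamine, SLC7A6 (y+LAT2) exchanges cationic for neutral amino acids, and SLC7A11 (xCT) brings in cystine in exchange for glutamate. These light chains reach the cell surface bound to a common heavy chain, the glycoprotein SLC3A2 (4F2hc, CD98). SLC7A1 (CAT1) carries arginine and lysine, SLC1A4 (ASCT1) and SLC1A5 (ASCT2) exchange small neutral amino acids, SLC38A1 and SLC38A2 are sodium-coupled glutamine and alanine carriers of system A, and SLC43A1 (LAT3) is a facilitator for branched-chain amino acids. Many of these genes are known targets of the transcription factor ATF4, which acts through a composite element that it shares with C/EBP proteins, and several are known targets of MYC, which binds E-boxes. IRE1 is a sensor of protein folding stress in the endoplasmic reticulum whose RNase splices the mRNA of the transcription factor XBP1.

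Promoter windows of 4 members are shown. SLC7A5, SLC3A2 and SLC1A4 are the members that fell at 72 h in all 4 clones in the main fits, each of the 12 libraries of a clone. SLC1A5 joined them under some other settings. In shXBP1 clone 18 the calls of SLC7A5 and SLC3A2 could each be ended by leaving out a single library. SLC7A1 holds the same composite element as SLC3A2 and SLC1A4 and stayed within 0.35 of its 0 h level on the log2 scale in every clone. At 72 h it was nonetheless called lower in shIRE1 clones 1 and 3 (-0.21 and -0.34) and shXBP1 clone 18 (-0.35), though not in shXBP1 clone 1. SLC1A5 and SLC38A1 hold the element too, fell in both shIRE1 clones at 72 h, and their windows are not printed. Any part of the element in these changes was not tested. The sequences are RefSeq windows on GRCh38.p14 from 250 bases before to 50 bases after a transcript start, written in the direction of transcription. They lie at chr16:87869458-87869757 on the minus strand for SLC7A5, chr11:62881449-62881748 on the plus strand for SLC3A2, chr2:64989149-64989448 on the plus strand for SLC1A4 and chr13:29595639-29595938 on the minus strand for SLC7A1. Capitals mark the E-box (CACGTG) in SLC7A5 and the ATF4 and C/EBP composite (TGATGNAA, here in either direction) in the other 3. SLC3A2 and SLC1A4 also have windows at other transcript starts, which lack the composite and are not printed. The window printed for each of these genes is the one that holds the composite.
SLC7A5: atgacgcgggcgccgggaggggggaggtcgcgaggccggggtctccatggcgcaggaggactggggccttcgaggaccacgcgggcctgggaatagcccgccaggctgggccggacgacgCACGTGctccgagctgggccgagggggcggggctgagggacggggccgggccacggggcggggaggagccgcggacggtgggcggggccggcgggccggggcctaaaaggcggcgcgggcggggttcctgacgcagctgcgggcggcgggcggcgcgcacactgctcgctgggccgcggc
SLC3A2: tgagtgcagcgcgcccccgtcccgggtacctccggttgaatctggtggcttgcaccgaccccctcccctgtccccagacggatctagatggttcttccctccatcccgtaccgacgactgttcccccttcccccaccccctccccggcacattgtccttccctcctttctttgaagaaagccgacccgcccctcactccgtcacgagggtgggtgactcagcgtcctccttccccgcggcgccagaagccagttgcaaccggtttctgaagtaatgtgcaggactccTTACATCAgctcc
SLC1A4: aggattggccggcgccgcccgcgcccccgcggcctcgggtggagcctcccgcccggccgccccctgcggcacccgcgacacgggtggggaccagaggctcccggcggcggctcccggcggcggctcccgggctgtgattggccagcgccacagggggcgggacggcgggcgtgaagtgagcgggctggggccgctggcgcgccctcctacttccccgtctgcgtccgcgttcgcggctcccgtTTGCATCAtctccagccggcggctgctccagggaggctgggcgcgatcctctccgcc
SLC7A1: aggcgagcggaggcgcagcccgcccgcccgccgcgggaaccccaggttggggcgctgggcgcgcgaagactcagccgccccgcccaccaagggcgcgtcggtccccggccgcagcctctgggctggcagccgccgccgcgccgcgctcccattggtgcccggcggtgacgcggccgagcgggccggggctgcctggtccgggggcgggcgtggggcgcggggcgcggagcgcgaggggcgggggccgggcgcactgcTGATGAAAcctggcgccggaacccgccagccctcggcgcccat

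Windows were found for 9 of the 10 members, 16 windows in all, and none was listed for SLC7A11. The composite TGATGNAA, searched on both strands, was in 5 of the 16 windows, 1 each of SLC1A4, SLC1A5, SLC38A1, SLC3A2 and SLC7A1, against 3.62% of all 35093 windows of the same length. Its first letter lay 7 bases before the start in SLC1A4, 7 bases after it in SLC7A1 and 37 bases after it in SLC3A2. The E-box CACGTG was in 3 windows, of SLC7A5, SLC1A5 and SLC43A1, against 7.26% of all windows, and in SLC7A5 its first letter lay 130 bases before the start. TGACNNNGC, the core of the antioxidant response element, was in 5 windows, of SLC1A5, SLC3A2, SLC7A1, SLC7A5 and SLC7A6, against 13.4%. TGACGTG, the core of the element bound by XBP1 and ATF6, was in 1 window, of SLC7A6, where it overlapped a match to TGACNNNGC, against 1.97%. The ETS-IRF composite, GGAA and GAAA with 2 bases between them, was in no member window, against 2.82%. These are matches of letters, and no binding was measured.

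Library totals ran from 19177855 to 40767202 counts. The plasma cell marker SDC1 was at 5108 to 15252 CPM (counts scaled to the library total with TMM factors) and the other plasma cell markers on the list of 10 were at 31.7 CPM or more in every library, except CD27 at 0.0440 to 0.826 CPM. Of 7 markers of other cell types, CD3E was at 4.59 to 17.3 CPM, PECAM1 and COL1A1 reached 3.20 and 1.27 CPM, and CD14, LYZ and EPCAM reached 0.687, 0.257 and 0.193 CPM at most. The targeted mRNAs were lower after doxycycline. In shIRE1 clone 1, ERN1 went from 152 ± 2.38 CPM untreated to 102 ± 1.70 after 72 h, and in shIRE1 clone 3 from 438 ± 15.4 to 125 ± 2.92 (SD, n = 3). XBP1 was at 167 ± 7.65 and 34.0 ± 0.758 CPM in shXBP1 clone 1, and at 170.3 ± 6.68 and 37.9 ± 5.37 in shXBP1 clone 18 (40.9 ± 1.14, n = 2, without the 72 h library named next). The library labelled shXBP1 clone 18, 72 h, replicate 3 stood apart from its group and was nearer to the 72 h level of shXBP1 clone 1 than to that of the other clone 18 libraries at 8 of the 10 members, so the main values that rest on it are given with and without it.

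Levels of different genes were set side by side per kilobase of exon, merged over all annotated transcripts of each gene. Transcripts in use can be shorter than the merged exons, so the order between genes depends in part on this choice. At 0 h (mean of the 4 clones) SLC7A5 was at 231 CPM per kb, SLC1A5 at 159.7, SLC38A1 at 129.9, SLC38A2 at 119.7 and SLC7A1 at 92.6. Then came SLC3A2 at 60.5, SLC1A4 at 35.9, SLC43A1 at 32.6, SLC7A6 at 11.9 and SLC7A11 at 6.98. SLC7A5 was the highest of the 10 in every clone at 0 h, with clone means from 196 to 297 CPM per kb. Neighbours in the middle of that order did not separate, since the clone means of SLC1A5 (128 to 180.1), SLC38A1 (126 to 134) and SLC38A2 (99.0 to 141) overlapped, as did those of SLC1A4 (31.5 to 43.2) and SLC43A1 (25.8 to 45.6). SLC7A11 was the lowest in shIRE1 clone 1 at 4.44, where SLC7A6 was at 12.6, but it was at 10.6 in shIRE1 clone 3, where SLC7A6 was at 9.08. In bulk RNA, fewer cells expressing a gene and less mRNA per cell cannot be told apart.

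Added up, the 10 mRNAs were lower at 72 h than at 0 h in each clone. Their summed level was 4585 ± 20.1 CPM at 0 h and 3259 ± 13.6 at 72 h in shIRE1 clone 1, and 5425 ± 109 and 3284 ± 46.9 in shIRE1 clone 3 (SD, n = 3). The shXBP1 clones had sums of 5605 ± 207 and 4424 ± 27.5 in clone 1 and, in clone 18, of 5717 ± 47.1 and 4744 ± 306, or 4912 at 72 h without the library in question. The 72 h sum was 0.711, 0.605, 0.789 and 0.830 of the 0 h sum in these clones. In each of them all 3 libraries at 72 h lay under all 3 at 0 h, and a two-sided exact permutation test of 3 against 3 gave p = 0.1, the smallest value this design allows.

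**Figure D1:**
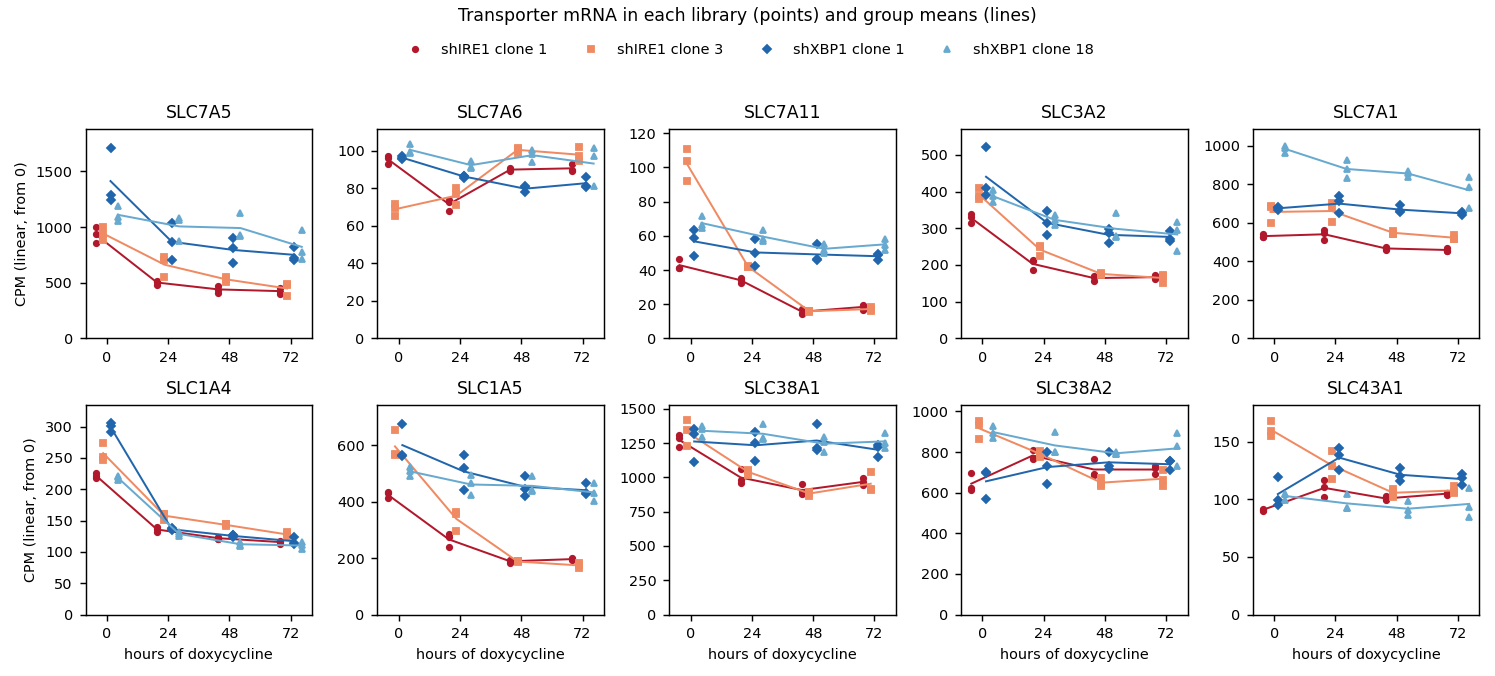
CPM (y axis, linear from 0) against hours of doxycycline (x axis) for the 10 transporter mRNAs, with a point for each of 3 libraries per group, lines through the group means of the 4 clones, and the clones set slightly apart sideways to keep points visible. SLC7A11, SLC1A5 and SLC3A2 were lower in both shIRE1 clones (reds) at 48 and 72 h than in both shXBP1 clones (blues), whereas SLC1A4 took a similar course in all 4, ending between 110.2 and 128 CPM.

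With shIRE1 the carrier mRNAs were mostly lower from the first day. In shIRE1 clone 1, 7 members fell, 2 rose and 1 was not called at each of 24, 48 and 72 h (edgeR quasi-likelihood test, each time against the clone's own 0 h libraries, Benjamini-Hochberg adjusted p under 0.05 over all genes tested). The share of all 17154 genes that fell was 29.0%, 31.5% and 31.1% at the 3 times, and the share that rose was 32.4%, 33.9% and 32.5%. In shIRE1 clone 3, 8 members fell and 2 were not called at 24 h, and 9 fell and 1 rose at 48 and at 72 h. There, 23.3%, 31.6% and 30.5% of 17204 genes fell and 22.8%, 31.6% and 29.7% rose. The median log2 fold change of the 10 members at 72 h was -0.67 in clone 1 and -0.81 in clone 3, beside 0.02 in each clone over all genes tested.

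With shXBP1 fewer members passed the test. Clone 1 had 4 members that fell and 1 that rose at 24 h, and 5 that fell and none that rose at 48 and 72 h, with 5 not called at each time. Of 16603 genes, 12.8%, 15.5% and 16.8% fell and 13.9%, 16.6% and 16.8% rose at the 3 times. In clone 18, 1, 3 and 5 members fell at 24, 48 and 72 h and none rose, where 1.30%, 3.50% and 5.55% of 16860 genes fell and 0.291%, 2.28% and 4.41% rose. Without the library labelled 72 h replicate 3 the clone 18 counts were 2, 5 and 4 lower, with 3.33%, 7.16% and 4.48% of all genes lower. The median log2 fold change of the members at 72 h was -0.25 in shXBP1 clone 1 and -0.26 in clone 18 (-0.24 without that library), beside -0.01 over all genes in each clone.

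**Figure D2:**
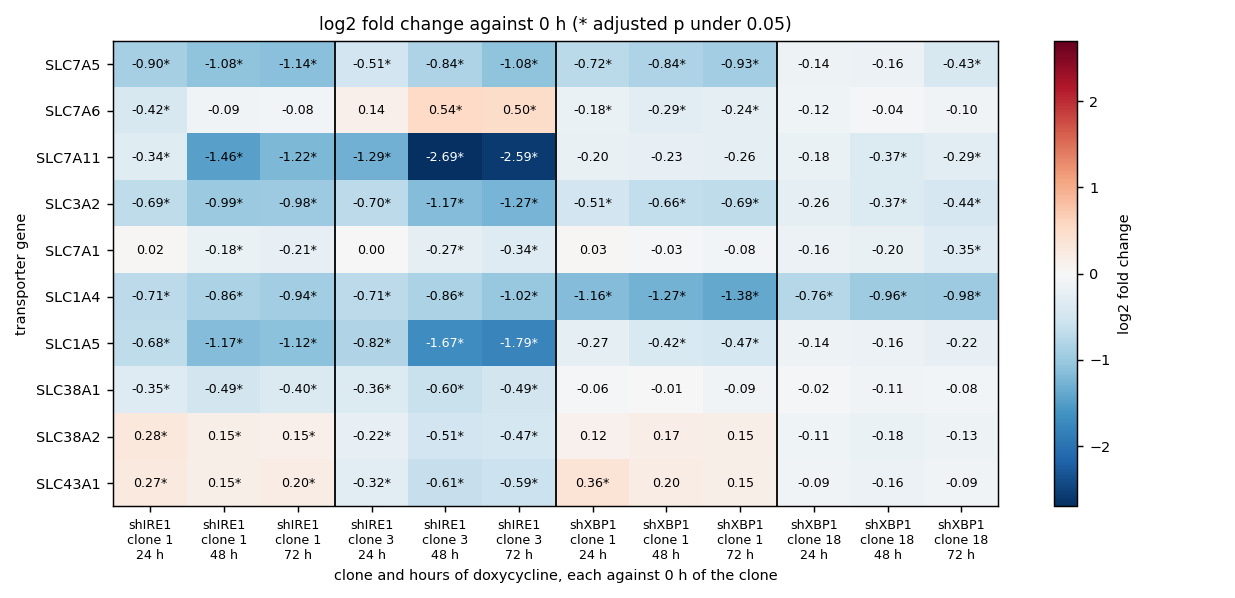
Log2 fold change of each transporter (rows) at 24, 48 and 72 h against 0 h of the same clone (columns), with red above 0, blue below 0 and an asterisk at an adjusted p under 0.05. SLC1A4 is the only row with an asterisk in all 12 columns, and SLC7A11 in shIRE1 clone 3 at 48 h, at -2.69, is the lowest value.

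Among the light chains, SLC7A5, the leucine exchanger, fell in both shIRE1 clones and in shXBP1 clone 1 at each time. Its CPM in the 3 libraries of shIRE1 clone 1 was 854, 942 and 1002 at 0 h and 450.1, 421 and 403 at 72 h. In shIRE1 clone 3 it was 884, 938 and 1005 at 0 h and 478, 488 and 379 at 72 h. In both clones every 72 h library lay under every 0 h library. The log2 fold change at 24, 48 and 72 h was -0.90, -1.08 and -1.14 in clone 1 (SE 0.06 each, edgeR adjusted p = 4.39e-10, 2.38e-11 and 1.22e-11) and -0.51, -0.84 and -1.08 in clone 3 (SE 0.11 each, adjusted p = 0.00110, 6.74e-06 and 4.81e-07).

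The shXBP1 clones differed in SLC7A5. In shXBP1 clone 1 the 0 h libraries were at 1712, 1287 and 1242 CPM and the 72 h libraries at 819, 724 and 709, and the fall at 24, 48 and 72 h was -0.72, -0.84 and -0.93 on the log2 scale (SE 0.16 each, edgeR adjusted p = 0.00578, 0.00215 and 0.00103). In shXBP1 clone 18 the 0 h libraries were at 1186, 1056 and 1090.4 CPM and the 72 h libraries at 977, 774 and 716, the last of them the library in question. The groups did not overlap, and the 72 h change was -0.43 (SE 0.11, adjusted p = 0.0337) with it and -0.34 (adjusted p = 0.0775) without it. That call was also lost when any 1 of the 3 untreated libraries was left out (-0.37, -0.45 and -0.43 for replicates 1 to 3), or 24 h replicate 3 (-0.42), or 72 h replicate 2 (-0.39). At 24 and 48 h the clone 18 values were -0.14 and -0.16 and were not called.

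SLC3A2, the heavy chain, took a course like that of SLC7A5. It went from 315, 329 and 338 CPM at 0 h to 172, 167 and 161 at 72 h in shIRE1 clone 1, and from 409, 381 and 387 to 172, 169 and 152 in shIRE1 clone 3. Its log2 fold changes at 24, 48 and 72 h were -0.69, -0.99 and -0.98 in clone 1 (SE 0.05 each). The same values were -0.70, -1.17 and -1.27 in clone 3 (SE 0.06 each), and edgeR's adjusted p lay between 3.24e-07 and 6.59e-12 over both clones. In shXBP1 clone 1 the values were -0.51, -0.66 and -0.69 (SE 0.11 each, adjusted p = 0.00494, 0.000927 and 0.000576). In shXBP1 clone 18 they were -0.26, -0.37 and -0.44 (SE 0.10 each, adjusted p = 0.239, 0.0398 and 0.0140). Without the library labelled 72 h replicate 3 they were -0.26, -0.37 and -0.33, and all 3 passed (adjusted p = 0.0431, 0.00272 and 0.0161). The 48 h call in clone 18 was lost without any 1 of the 3 libraries at 0 h, the 3 at 24 h or 48 h replicates 1 and 2 (values from -0.32 to -0.39), and the 72 h call without 0 h replicate 1 (-0.40) or 0 h replicate 3 (-0.43). With only the 6 libraries compared in the fit, the 72 h call was lost too (-0.44, edgeR adjusted p = 0.0622).

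The ratio of SLC7A5 to SLC3A2 mRNA, measured per kilobase, had group means between 3.23 and 4.46 over the 16 groups. The absolute size of this ratio depends on the merged exon lengths used, 4.764 kb and 6.392 kb, which are the same in every group. At 72 h against 0 h it was 3.41 ± 0.0928 against 3.82 ± 0.171 in shIRE1 clone 1 (SD, n = 3, exact permutation p = 0.1) and 3.65 ± 0.270 against 3.23 ± 0.300 in shIRE1 clone 3, where the libraries overlapped (exact permutation p = 0.2). It was 3.64 ± 0.0980 against 4.30 ± 0.0993 in shXBP1 clone 1 (exact permutation p = 0.1) and 3.90 ± 0.340 against 3.85 ± 0.0799 in clone 18 (exact permutation p = 0.9). Without the library in question the clone 18 mean at 72 h was 3.83. At 48 h it lay above every 0 h library in shIRE1 clone 3, at 4.06 ± 0.142, and in shXBP1 clone 18, at 4.46 ± 0.00982 (exact permutation p = 0.1 in each), and under them in shXBP1 clone 1, at 3.77 ± 0.277.

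SLC7A11, the cystine carrier, showed the largest fall of the 10 in both shIRE1 clones at 48 and 72 h. In shIRE1 clone 3 its libraries were at 92.1, 111 and 104 CPM at 0 h, at 42.2, 41.7 and 42.0 at 24 h, at 16.1, 16.3 and 15.3 at 48 h and at 15.9, 17.1 and 18.5 at 72 h. In shIRE1 clone 1 they were at 46.5, 41.0 and 41.1 at 0 h, at 35.6, 33.9 and 32.6 at 24 h, at 14.8, 14.5 and 17.5 at 48 h and at 19.7, 16.9 and 18.7 at 72 h. Clone 3 began above clone 1, with no overlap, and the 72 h libraries of both lay between 15.9 and 19.7 CPM. On the log2 scale its changes were -1.29, -2.69 and -2.59 in clone 3 (SE 0.07, 0.08 and 0.08, edgeR adjusted p = 1.67e-09, 6.27e-13 and 9.48e-13) and -0.34, -1.46 and -1.22 in clone 1 (SE 0.07, 0.08 and 0.08, adjusted p = 0.000506, 5.13e-12 and 7.46e-11). At 48 h these were 6.47-fold and 2.75-fold lower levels.

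With shXBP1, SLC7A11 stayed near its starting level. Its libraries in shXBP1 clone 1 were at 48.3, 58.5 and 63.6 CPM at 0 h and 46.0, 48.6 and 49.6 at 72 h, which overlapped, and its log2 values of -0.20, -0.23 and -0.26 at the 3 times were not called (SE 0.12 each, edgeR adjusted p = 0.235, 0.169 and 0.112), although the 72 h value passed without 0 h replicate 1 (-0.36). In shXBP1 clone 18 the 0 h libraries were at 64.4, 71.6 and 66.5 CPM and the 72 h libraries at 54.8, 58.4 and 51.9. The values of -0.37 at 48 h and -0.29 at 72 h passed (SE 0.07 each, adjusted p = 0.00857 and 0.0214) and that of -0.18 at 24 h did not. Without the library in question the 72 h value was -0.25 (adjusted p = 0.0443). The 48 h call was lost without 0 h replicate 2 (-0.31) or 48 h replicate 2 (-0.36), and the 72 h call without 0 h replicate 1 (-0.31), replicate 2 (-0.23) or replicate 3 (-0.29).

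SLC7A6, the exchanger of cationic for neutral amino acids, moved apart from the other light chains. In shIRE1 clone 3 it was at 65.3, 71.8 and 69.5 CPM at 0 h and at 97.4, 94.4 and 102 at 72 h, with no overlap. It rose there by 0.54 at 48 h and 0.50 at 72 h on the log2 scale (SE 0.06 each, edgeR adjusted p = 9.91e-07 and 2.53e-06), while its 24 h value of 0.14 was not called and passed without 24 h replicate 1 (0.19). In shIRE1 clone 1 it was at 96.4, 97.5 and 93.0 CPM at 0 h and 72.6, 68.1 and 73.9 at 24 h, a log2 fold change of -0.42 (SE 0.04, adjusted p = 5.71e-08), and its 48 and 72 h values of -0.09 and -0.08 were not called. It fell in shXBP1 clone 1 (log2 values of -0.18, -0.29 and -0.24, SE 0.04 each, adjusted p = 0.0113, 0.000683 and 0.00185) and was not called in clone 18. The 24 h call in clone 1 was lost without a filter on low counts (adjusted p = 0.140) and with only the 6 libraries compared in the fit (adjusted p = 0.0987). Of its exon bases, 55.6% overlap genes on the other strand, SLC7A6OS (6.13 to 14.5 CPM) among them, and whether strand was used in counting is not given in the sources used here.

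Set against the heavy chain per kilobase, SLC7A6 went from 0.246 ± 0.0134 at 0 h to 0.459 ± 0.0235 at 72 h in shIRE1 clone 1 and from 0.148 ± 0.0125 to 0.504 ± 0.0537 in shIRE1 clone 3 (SD, n = 3). The shXBP1 clones went from 0.187 ± 0.0285 to 0.253 ± 0.0175 and from 0.219 ± 0.0116 to 0.278 ± 0.00834 (0.274 without the library in question). No 72 h library overlapped a 0 h library of its clone in this ratio, and the exact permutation p was 0.1 in each of the 4 clones. The 72 h ratio was thus 1.86 and 3.40 times the 0 h ratio with shIRE1 and 1.35 and 1.27 times with shXBP1. The 3 light chains summed per heavy chain ended at 0.951, 1.19, 0.876 and 1.03 of their 0 h value in the 4 clones.

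SLC7A1, the arginine and lysine carrier, fell late and by little. Its group means in shIRE1 clone 1 were 531 ± 9.62, 541 ± 24.9, 467 ± 8.12 and 459 ± 7.40 CPM at 0, 24, 48 and 72 h (SD, n = 3), and in clone 3 they were 657 ± 49.0, 662 ± 50.3, 549 ± 7.32 and 523 ± 12.6. It was not called at 24 h and fell by 0.18 and 0.27 at 48 h and fell by 0.21 and 0.34 at 72 h on the log2 scale in clones 1 and 3 (edgeR adjusted p = 0.000343, 0.00214, 8.09e-05 and 0.000333). It was between 640 and 738 CPM in all 12 libraries of shXBP1 clone 1 and was not called there at any time. In shXBP1 clone 18 it stood at 985 ± 20.5 CPM at 0 h, the highest of the 4 clones, and at 769.9 ± 81.8 at 72 h, a log2 fold change of -0.35 (SE 0.07, adjusted p = 0.00821). Without the library in question that value was -0.27 (adjusted p = 0.00486), and the 48 h value of -0.20 then passed as well (adjusted p = 0.0105). The 72 h call was lost without 0 h replicate 1 (-0.33).

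The neutral exchangers SLC1A4 and SLC1A5 parted between the knockdowns. SLC1A4, which carries alanine, serine and cysteine, fell in all 4 clones at all 3 times, and no other member did. It went from 222, 226 and 218 CPM at 0 h to 113, 117 and 117 at 72 h in shIRE1 clone 1, and from 275, 252 and 247 to 131, 123 and 129 in shIRE1 clone 3. With shXBP1 it went from 306, 292 and 301 to 113, 124 and 115 in clone 1 and in clone 18 from 220.2, 215 and 221 to 111, 104 and 115. The groups did not overlap in any clone, and the 72 h libraries of all 4 clones lay between 104 and 131 CPM.

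The log2 fold changes of SLC1A4 at 24, 48 and 72 h were -0.71, -0.86 and -0.94 in shIRE1 clone 1 and -0.71, -0.86 and -1.02 in shIRE1 clone 3 (SE 0.04 and 0.05), with an edgeR adjusted p between 2.75e-08 and 7.35e-14. They were -1.16, -1.27 and -1.38 in shXBP1 clone 1 (SE 0.04, adjusted p between 3.91e-08 and 5.71e-09) and -0.76, -0.96 and -0.98 in shXBP1 clone 18 (SE 0.05, adjusted p = 5.67e-06, 2.60e-07 and 1.46e-07). Without the library in question the clone 18 value at 72 h was -1.02 (adjusted p = 1.49e-08). No other member was called in shXBP1 clone 18 at 24 h. None of the alternatives run, the fits without each library included, ended a call of SLC1A4 against 0 h.

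SLC1A5, the main glutamine exchanger, fell further with shIRE1. Its libraries went from 411, 431 and 432 CPM at 0 h to 199, 194 and 196 at 72 h in shIRE1 clone 1, and from 654, 564 and 568 to 182, 177 and 164 in shIRE1 clone 3. They went from 675, 561 and 564 to 464, 426 and 430.4 in shXBP1 clone 1 and from 524, 491 and 507 to 466, 401 and 431 in shXBP1 clone 18. The 72 h libraries lay under the 0 h libraries in all 4 clones, at 164 to 199 CPM with shIRE1 and 401 to 466 with shXBP1. The log2 fold changes at 24, 48 and 72 h were -0.68, -1.17 and -1.12 in shIRE1 clone 1 (SE 0.05 each) and -0.82, -1.67 and -1.79 in shIRE1 clone 3 (SE 0.08 each, edgeR adjusted p from 5.54e-07 to 8.20e-13 over both clones). In shXBP1 clone 1 the values were -0.27, -0.42 and -0.47 (SE 0.10 each, adjusted p = 0.0678, 0.00800 and 0.00426), the first of which passed without 24 h replicate 2 (-0.35). It also passed without a filter on low counts and in the model of all 48 libraries (edgeR adjusted p = 0.0180 and 0.0206). In shXBP1 clone 18 they were -0.14, -0.16 and -0.22 (SE 0.07 each) and were not called (adjusted p = 0.425, 0.237 and 0.0643), although the 72 h value passed without 24 h replicate 1 (-0.22) or 72 h replicate 1 (-0.28). That value also passed with DESeq2 (adjusted p = 0.0328). With edgeR it passed without a filter on low counts and in the model of all 48 libraries (adjusted p = 0.0184 and 0.0457). The 48 h value passed with only the 6 libraries compared in the fit (adjusted p = 0.0303). Of the exon bases of SLC1A5, 23.8% overlap genes on the other strand.

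The ratio of SLC1A5 to SLC1A4 per kilobase therefore went in different directions. It was 3.99 ± 0.139 at 0 h and 3.53 ± 0.107 at 72 h in shIRE1 clone 1, and 4.81 ± 0.150 and 2.84 ± 0.173 in shIRE1 clone 3 (SD, n = 3). It was, in shXBP1 clone 1, 4.17 ± 0.376 and 7.86 ± 0.682, and in shXBP1 clone 18 it was 4.84 ± 0.101 and 8.19 ± 0.528 (8.39 without the library in question). The 72 h libraries lay under the 0 h libraries in both shIRE1 clones and above them in both shXBP1 clones (exact permutation p = 0.1 in each clone, the smallest value possible).

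**Figure D3:**
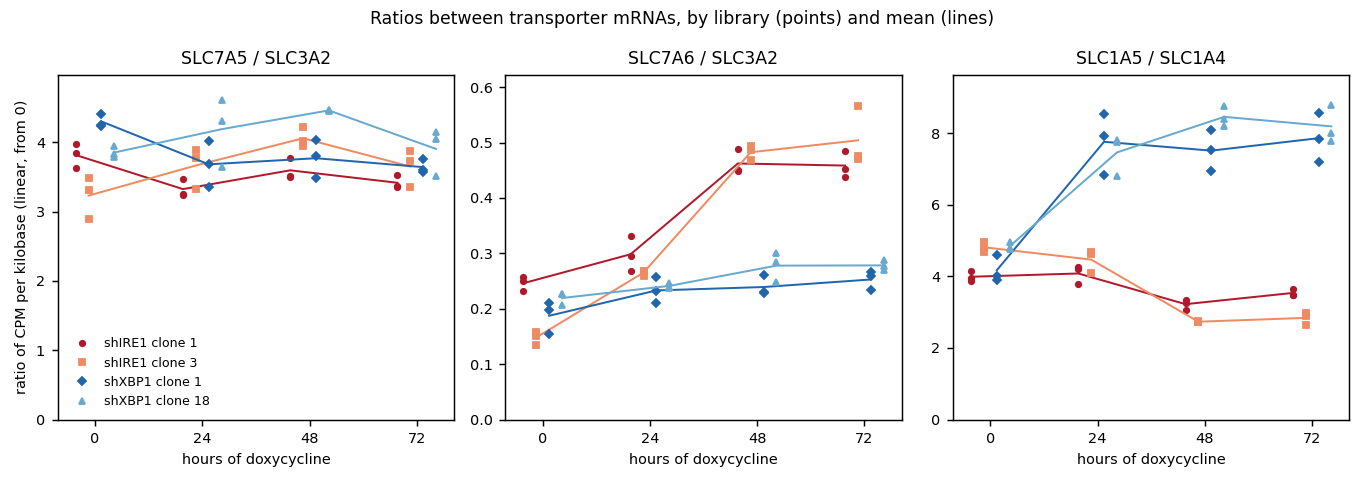
Ratios of CPM per kilobase (y axes, linear from 0) against hours of doxycycline (x axes) for SLC7A5 over SLC3A2, SLC7A6 over SLC3A2 and SLC1A5 over SLC1A4, with a point for each of 3 libraries per group and lines through the means. The group means of SLC7A5 over SLC3A2 stay between 3.23 and 4.46. Those of SLC7A6 over SLC3A2 are 0.459 and 0.504 at 72 h in the shIRE1 clones. Those of SLC1A5 over SLC1A4 are 7.86 and 8.19 at 72 h in the shXBP1 clones.

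The system A carriers were among the most abundant of the 10, and SLC38A1 fell at each time in both shIRE1 clones but was not called with shXBP1. The SLC38A1 level in shIRE1 clone 1 was 1272 ± 47.8 CPM before doxycycline, then 999 ± 53.6, 907 ± 40.4 and 968 ± 23.5 after 24, 48 and 72 h (SD, n = 3). Its level in clone 3 was 1330.5 ± 95.2, 1040.1 ± 18.4, 882 ± 14.3 and 954 ± 71.5. These were log2 fold changes of -0.35, -0.49 and -0.40 in clone 1 (SE 0.04 each) and -0.36, -0.60 and -0.49 in clone 3 (SE 0.06 each, edgeR adjusted p from 0.000137 to 5.06e-09 over both). In the shXBP1 clones its libraries lay between 1114 and 1391 CPM throughout, and none of the 6 values, from -0.11 to -0.01, was called.

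SLC38A2, which cells are known to raise when amino acids run short, moved in opposite directions in the shIRE1 clones. In clone 1 it was at 698, 622 and 613 CPM at 0 h and 811, 771 and 767 at 24 h, and it rose by 0.28 on the log2 scale (SE 0.05, edgeR adjusted p = 4.86e-05). Its later values of 0.15 at 48 and at 72 h also passed (adjusted p = 0.00963 and 0.0117), but the libraries overlapped with those at 0 h, and the calls were lost without 0 h replicate 2 (0.12 at both times), without 0 h replicate 3 (0.11 at both times) and, at 48 h, without 48 h replicate 3 (0.11). Both were also lost in the model of all 48 libraries (edgeR adjusted p = 0.0812 and 0.0841). In clone 3 it was at 934, 955 and 864 CPM at 0 h and 662, 632 and 713 at 72 h, and it fell by 0.22, 0.51 and 0.47 at the 3 times (SE 0.05 each, adjusted p = 0.00255, 4.97e-07 and 1.27e-06). In the shXBP1 clones none of the 6 values, from -0.18 to 0.17, was called, and the 48 h value of -0.18 in clone 18 passed without the library labelled 72 h replicate 3 (adjusted p = 0.0349).

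SLC43A1, the LAT3 facilitator, behaved likewise. In shIRE1 clone 1 it went from 91.2, 90.2 and 91.7 CPM at 0 h to 106, 104 and 105 at 72 h, and in shIRE1 clone 3 from 168, 155 and 159.9 to 111, 106 and 106. The log2 fold changes at 24, 48 and 72 h were 0.27, 0.15 and 0.20 in clone 1 (SE 0.05 each, edgeR adjusted p = 4.85e-05, 0.00805 and 0.000782) and -0.32, -0.61 and -0.59 in clone 3 (SE 0.06 each, adjusted p = 0.000876, 7.25e-07 and 1.24e-06). The 48 h call in clone 1 was lost in the model of all 48 libraries (edgeR adjusted p = 0.0948). In both clones the 72 h libraries stood apart from the 0 h libraries, and at 72 h all 6 lay between 104 and 111 CPM. In shXBP1 clone 1 it rose by 0.36 at 24 h (SE 0.09, adjusted p = 0.00935, or 0.0570 with only the 6 libraries compared in the fit), and its later values of 0.20 and 0.15 were not called but passed without 0 h replicate 1 (0.31 and 0.26). In clone 18 its values from -0.16 to -0.09 were not called.

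**Figure D4:**
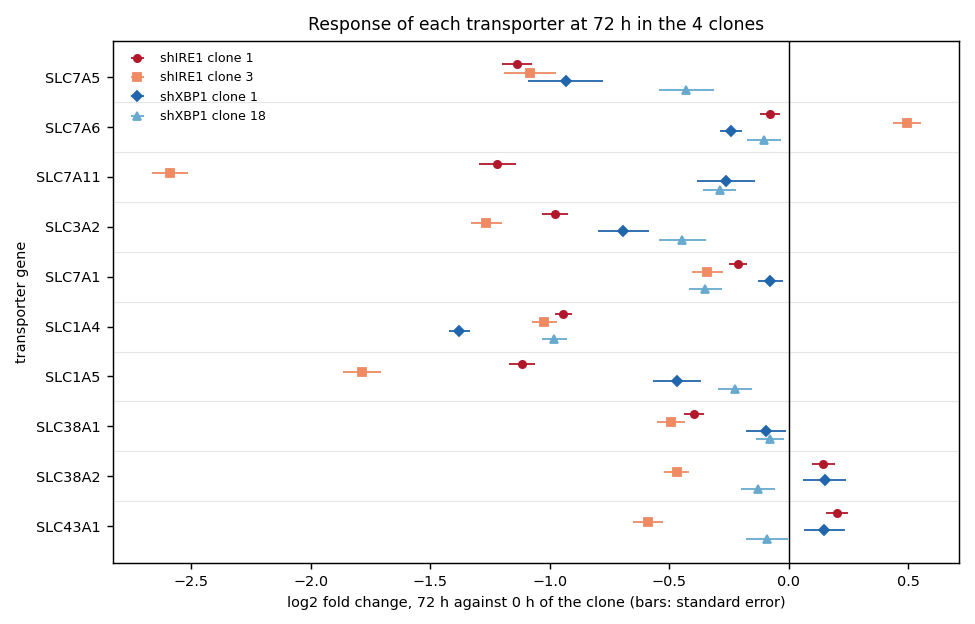
Log2 fold change at 72 h against 0 h (x axis) of each transporter (y axis) in the 4 clones, with bars of 1 standard error. The shIRE1 points (reds) lie left of the shXBP1 points (blues) for SLC7A5, SLC7A11, SLC3A2, SLC1A5 and SLC38A1, and the shIRE1 clones lie on opposite sides of 0 for SLC7A6, SLC38A2 and SLC43A1, where the clone 1 value of SLC7A6, -0.08, was not called.

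The difference between the knockdowns was tested in 1 model of all 48 libraries, as the mean response of the 2 shIRE1 clones minus that of the 2 shXBP1 clones. At 24 h, 4 members were lower and 1 higher with shIRE1, and at 48 and 72 h, 7 were lower and 2 higher. Of 18445 genes, 19.7%, 28.0% and 27.4% were lower and 19.1%, 28.9% and 28.0% higher at the 3 times. Leaving out the doubted shXBP1 clone 18 library made these counts 5, 8 and 7 lower and 1, 2 and 2 higher. Of all genes, 21.0%, 28.5% and 27.1% were then lower and 19.0%, 29.0% and 27.2% higher.

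SLC7A11 differed most, by -0.63 at 24 h, -1.79 at 48 h and -1.63 at 72 h on the log2 scale (SE 0.09 each, edgeR adjusted p = 5.11e-07, 3.32e-19 and 5.83e-18). SLC1A5 differed by -0.55, -1.14 and -1.11 (SE 0.08 each, adjusted p = 6.87e-07, 4.40e-15 and 1.10e-14). SLC3A2 differed by -0.32, -0.57 and -0.55 (SE 0.09 each, adjusted p = 0.00387, 8.92e-07 and 1.71e-06) and SLC38A1 by -0.32, -0.49 and -0.36 (SE 0.07 each, adjusted p = 0.000117, 3.61e-08 and 1.35e-05). SLC7A5 differed by -0.46 at 48 h and -0.43 at 72 h (SE 0.13 each, adjusted p = 0.00221 and 0.00419), and its 24 h value of -0.28 (adjusted p = 0.0801) passed without 0 h or 24 h replicate 1 of shXBP1 clone 1 (-0.37 and -0.36) or 24 h replicate 1 of shXBP1 clone 18 (-0.33). SLC43A1 differed by -0.25 and -0.22 at 48 and 72 h (SE 0.08 each, adjusted p = 0.00411 and 0.0125), and its 24 h value of -0.16 passed without 24 h replicate 2 of shIRE1 clone 3 (-0.20), 0 h or 24 h replicate 1 of shXBP1 clone 1 (-0.23 and -0.21) or the doubted shXBP1 clone 18 library (-0.17).

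The members higher with shIRE1 were SLC1A4, which fell less than with shXBP1, and SLC7A6. SLC1A4 differed by 0.24, 0.25 and 0.20 (SE 0.04 each, edgeR adjusted p = 1.16e-05, 3.07e-06 and 0.000144), and SLC7A6 by 0.39 and 0.38 at 48 and 72 h (SE 0.05 each, adjusted p = 7.40e-08 and 1.07e-07). SLC38A2 was near the threshold at -0.18 and -0.17 (SE 0.07 each, adjusted p = 0.0309 and 0.0411), and at -0.18 and -0.22 (adjusted p = 0.0162 and 0.00581) without the doubted shXBP1 clone 18 library. Its 72 h call was lost without shIRE1 clone 1 0 h replicate 1, any 1 of the 3 libraries of shIRE1 clone 1 at 72 h, shIRE1 clone 3 0 h replicate 2 or 72 h replicate 2, 0 h replicate 1 of either shXBP1 clone or 72 h replicate 2 of shXBP1 clone 18 (values from -0.14 to -0.17). Its 48 h call was lost without 0 h or 48 h replicate 1 of shIRE1 clone 1, 0 h replicate 2 or 48 h replicate 1 of shIRE1 clone 3, or 0 h replicate 1 or 48 h replicate 2 of shXBP1 clone 1 (values from -0.14 to -0.17). SLC7A1 did not pass at any time, with -0.06 at 72 h (SE 0.06, adjusted p = 0.350), and its 48 h value of -0.11 passed without shIRE1 clone 3 0 h replicate 1 (-0.15) and when the doubted shXBP1 clone 18 library was left out (-0.12, adjusted p = 0.0451).

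The clones of an shRNA did not start alike. Between the shIRE1 clones at 0 h, 7 members were lower and 1 higher in clone 1 than in clone 3, where 21.4% and 19.2% of 18445 genes were lower and higher. The SLC7A11 difference was -1.26 on the log2 scale (SE 0.09, edgeR adjusted p = 3.98e-14), that of SLC43A1 -0.82 (SE 0.08, adjusted p = 1.46e-11), of SLC38A2 -0.51, of SLC1A5 -0.49, of SLC7A1 -0.31, of SLC3A2 -0.26, of SLC1A4 -0.21 and of SLC7A6 0.47 (SE 0.05, adjusted p = 2.38e-09). The SLC3A2 call was lost without 0 h replicate 1 of either clone (-0.23 for each) or 0 h replicate 2 of clone 1 (-0.26). SLC7A5 and SLC38A1, at -0.01 and -0.06, were not called.

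Their responses at 72 h also differed, for 5 members. In clone 1 minus clone 3, SLC7A11 differed by 1.36 (SE 0.14), SLC43A1 by 0.78 (SE 0.11), SLC1A5 by 0.66 (SE 0.12), SLC38A2 by 0.60 (SE 0.10) and SLC7A6 by -0.59 (SE 0.08), with edgeR adjusted p from 2.80e-05 to 3.10e-10. Of all genes tested, 27.5% differed between these responses. These 5 are members that differed at 0 h, and since both tests use the 0 h libraries the figures are not independent. At 72 h the group means of the shIRE1 clones were 18.4 and 17.2 CPM for SLC7A11, 105 and 108 for SLC43A1, 714 and 669 for SLC38A2, 196 and 174 for SLC1A5 and 90.7 and 98.0 for SLC7A6.

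Between the shXBP1 clones at 0 h, SLC1A4 (0.46), SLC7A5 (0.35) and SLC1A5 (0.24) were higher in clone 1 than in clone 18 and SLC7A1 (-0.54), SLC38A2 (-0.45) and SLC7A11 (-0.25) were lower, so 3 members were higher and 3 lower, where 24.5% and 26.8% of all genes were (edgeR adjusted p from 1.07e-11 to 0.0212). Leaving out shXBP1 clone 1 0 h replicate 1, whose SLC7A5 was at 1712 CPM, ended the calls of SLC7A5 (0.21), SLC1A5 (0.18) and SLC7A11 (-0.12). The SLC7A5 call was also lost without 0 h replicate 2 (0.35) or 0 h replicate 3 (0.34) of clone 18, and the SLC7A11 call without 0 h replicate 2 of clone 18 (-0.17). SLC3A2, at 0.19, was not called and passed without 0 h replicate 2 (0.27) or replicate 3 (0.30) of clone 1, 0 h replicate 1 of clone 18 (0.25) or the doubted shXBP1 clone 18 library (0.22).

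Their responses at 72 h differed for 4 members, where 24.6% of all genes differed. SLC1A4 fell further in clone 1 (difference -0.37, SE 0.06, edgeR adjusted p = 1.28e-05), as did SLC7A5 (-0.48, SE 0.18, adjusted p = 0.0459), and SLC38A2 (0.31, adjusted p = 0.0244) and SLC7A1 (0.30, adjusted p = 0.00507) were higher. Without the library in question 5 members differed, where 10.7% of all genes were higher and 9.13% lower. SLC38A2 (0.20) and SLC7A1 (0.18) were then no longer called, SLC7A5 kept its call at -0.60 (adjusted p = 0.0205), and SLC3A2 (-0.37), SLC7A6 (-0.23) and SLC43A1 (0.35) were called. The SLC7A5 call was lost when clone 1 lacked its 0 h replicate 1 (-0.34) or, at 72 h, replicate 2 (-0.48) or 3 (-0.46), and when clone 18 lacked its 0 h replicate 2 (-0.47) or 3 (-0.48) or its 72 h replicate 1 (-0.36). The SLC38A2 call was also lost when clone 1 lacked its 0 h replicate 1 (0.19) or, at 72 h, replicate 2 (0.27) or 3 (0.27), and when clone 18 lacked its 0 h replicate 2 (0.26), and SLC43A1 (0.27 in the full fit) passed without 0 h replicate 1 of clone 1 (0.35).

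Across the 16 groups, with log2 levels centred on each clone, Pearson's r between pairs of members ran from -0.89 to 0.97. It was 0.97 between SLC7A11 and SLC1A5, 0.97 between SLC7A5 and SLC3A2, 0.96 between SLC3A2 and SLC1A5, 0.89 between SLC7A11 and SLC3A2, 0.93 between SLC38A2 and SLC43A1 and -0.89 between SLC7A6 and SLC38A2. The genes outside the set with the closest course, among 12012 compared, were CNIH1 (r = 0.995), GNAI3 (0.988) and AC243829.4 (0.985) for SLC7A11. For SLC7A5 they were LRRC59 (0.984), ARF1 (0.981) and GOLM1 (0.980), and for SLC3A2 they were GORASP2 (0.989), STT3A (0.989) and RPN1 (0.987). The 16 points share clones, 0 h libraries and scaling, so these values describe the groups and carry no p.

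Of 24 other plasma membrane amino acid carriers on a list, 17 had a mean under 1 CPM in all 16 groups and 7 were tested in the shIRE1 clones. At 72 h, 3 rose and 2 fell in shIRE1 clone 1 and 3 rose and 3 fell in clone 3, where 1 rose and 2 fell of 7 in shXBP1 clone 1 and 2 fell of 8 in clone 18 (2 of 9 without the library in question). Of all genes tested at 72 h, 32.5% rose and 31.1% fell in shIRE1 clone 1, 29.7% and 30.5% in clone 3, 16.8% and 16.8% in shXBP1 clone 1 and 4.41% and 5.55% in clone 18 (3.09% and 4.48% without that library). The shIRE1 counts of these carriers are near that background. SLC43A2 (LAT4), a facilitator related to SLC43A1, rose by 0.74 and 1.55 on the log2 scale in shIRE1 clones 1 and 3 and fell by 0.57 in shXBP1 clone 1 (edgeR adjusted p = 3.88e-10, 3.00e-09 and 0.0152). SLC16A10 (TAT1), an aromatic amino acid carrier, rose by 0.69 and 1.52 in the shIRE1 clones, with values of -0.07 and 0.20 in the shXBP1 clones that were not called. SLC6A9, a glycine carrier, fell by 0.76 and 2.20 with shIRE1 and stood at -0.11 and -0.15 with shXBP1, not called. SLC38A5, a glutamine carrier, fell in all 4 clones (log2 values of -0.76, -0.64, -0.71 and -0.76, adjusted p from 1.31e-09 to 0.0447).

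The amino acid response list holds ATF4 and genes that ATF4 is known to switch on when amino acids are short. At 72 h, 7 of 14 tested genes fell and 1 rose in shIRE1 clone 1 (median log2 fold change -0.17), and 12 of 14 fell and none rose in clone 3 (median -1.43), where 31.1% and 30.5% of all genes fell. The clones already differed at 0 h, when 13 of the 14 were lower in clone 1 than in clone 3 (median -0.92, where 21.4% of all genes were lower). In the test of the difference between their 72 h responses 10 of the 14 were higher in clone 1 and none lower (median 0.96, where 27.5% of all genes differed in either direction). Both tests use the 0 h libraries. Of 13 tested in shXBP1 clone 1, 4 rose and 1 fell (median 0.16), and in clone 18, 6 of 13 fell and none rose (median -0.32, and 5 fell without the library in question). Of all genes tested, 16.8% went each way in shXBP1 clone 1. In clone 18, 5.55% fell and 4.41% rose (4.48% fell without that library). ATF4, which is among the genes counted, went from 197 ± 3.88 to 137 ± 3.02 CPM in shIRE1 clone 1 and from 295 ± 24.1 to 119.9 ± 0.214 in clone 3 (SD, n = 3). These were log2 fold changes of -0.52 and -1.31 (edgeR adjusted p = 1.14e-08 and 4.58e-11). In the shXBP1 clones it changed by -0.19 and -0.24 (adjusted p = 0.0190 and 0.0215). CHAC1, which degrades glutathione, fell by 0.59 and 3.73 in shIRE1 clones 1 and 3, fell by 1.07 in shXBP1 clone 18, and rose by 0.53 in shXBP1 clone 1. ASNS, asparagine synthetase, was nearly absent, with group means of 0.428 to 1.08 CPM.

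MYC, whose known targets include SLC7A5, went from 1724 ± 52.9 to 979.8 ± 13.8 CPM in shIRE1 clone 1 and from 1351 ± 83.5 to 820.3 ± 45.0 in clone 3 between 0 and 72 h. At 24 h it was at 1242 ± 57.0 in clone 1 and 1434 ± 113 in clone 3. The shXBP1 clone 1 level was 1695 ± 225 at 0 h and 1301 ± 39.0 at 72 h, and in clone 18 at 997 ± 45.2 and 1073 ± 198 (SD, n = 3), or 963 ± 74.3 (n = 2) at 72 h without the library in question.

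Genes that use what the carriers bring in also moved. Of the 20 cytosolic aminoacyl-tRNA synthetases, which charge tRNAs with amino acids, 13 fell and 4 rose at 72 h in shIRE1 clone 1 and 14 fell and 4 rose in clone 3, where 4 fell and 4 rose in shXBP1 clone 1 and none was called in clone 18 (1 fell without the library in question). Of all genes, 31.1% fell and 32.5% rose in shIRE1 clone 1 and 30.5% and 29.7% in clone 3, beside 16.8% each way in shXBP1 clone 1. In shXBP1 clone 18, 5.55% fell and 4.41% rose (4.48% and 3.09% without that library). GARS1 fell by 0.87 and 1.60 with shIRE1 and stood at 0.04 and 0.03 with shXBP1. Of 10 tested genes of cystine use and glutathione synthesis, 6 fell in shIRE1 clone 1, and 7 fell and 1 rose in clone 3, to be read against the same shares of all genes. CTH, which makes cysteine from cystathionine, fell by 0.56 and 3.39 in the shIRE1 clones and rose by 0.96 in shXBP1 clone 1 (edgeR adjusted p = 9.22e-06, 9.53e-13 and 4.06e-05). TXNRD1, thioredoxin reductase, fell by 0.89 and 0.64 with shIRE1 and fell by 0.19 in shXBP1 clone 1. Of these 10, 4 fell and 1 rose in shXBP1 clone 1, and in clone 18 none was called.

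Of 24 tested genes of amino acid sensing by mTORC1, 12 rose and 4 fell in shIRE1 clone 1 and 10 rose and 5 fell in clone 3 at 72 h, where 6 rose and 3 fell in shXBP1 clone 1 and 1 rose and 2 fell in clone 18 (1 and 1 without the library in question). Of all genes, 32.5% and 29.7% rose in the shIRE1 clones, 31.1% and 30.5% fell, and 16.8% went each way in shXBP1 clone 1. In shXBP1 clone 18, 4.41% rose and 5.55% fell (3.09% and 4.48% without that library). SESN3, a sestrin that restrains mTORC1, rose by 1.05 and 1.70 with shIRE1, with values of 0.55 and -0.14 in shXBP1 clones 1 and 18 that were not called. SESN1 rose by 1.00 and 1.26 with shIRE1 and by 0.30 in shXBP1 clone 1 (edgeR adjusted p = 0.0130), and was not called in clone 18 (0.13). RRAGD, a Rag GTPase that recruits mTORC1 to the lysosome, fell by 1.05 and 1.61 with shIRE1 and rose by 0.46 and 0.27 with shXBP1 (edgeR adjusted p = 0.00112 and 0.0202 for the rises). LAMTOR5, of the complex that anchors the Rag proteins, fell by 0.97 and 0.95 with shIRE1 and stood at -0.05 and 0.01 with shXBP1, not called. Of 7 tested lysosomal amino acid carriers, 3 rose and 1 fell in shIRE1 clone 1, 2 rose and 2 fell in clone 3 and 1 fell in each shXBP1 clone. The shIRE1 counts are near those shares of all genes. SLC38A7 rose by 0.38 and 0.49 with shIRE1 and SLC36A1 fell by 0.32 and 0.30.

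Plasma cell markers moved with the shIRE1 groups as well. Of 10 tested at 72 h, 7 fell and 2 rose in shIRE1 clone 1 and 9 fell in clone 3, while 3 fell and 4 rose in shXBP1 clone 1 and 5 of 9 fell in clone 18 (5 fell and 1 rose without the library in question). Of all genes, 31.1%, 30.5%, 16.8% and 5.55% fell in these clones and 32.5%, 29.7%, 16.8% and 4.41% rose. Without that library 4.48% fell and 3.09% rose in clone 18. XBP1, the target of the shXBP1 constructs, is on the list of plasma cell markers. Its falls in shXBP1 clones 1 and 18 (log2 values of -2.32 and -2.16) are in these counts, though the design set them. Of the 7 markers of other cell types, 2 rose and 1 fell of 4 tested in shIRE1 clone 1, 3 of 3 rose in clone 3, 1 of 3 fell in shXBP1 clone 1 and none of 3 was called in clone 18. Their summed level was 7.08 to 7.37 CPM at 0 h and 16.5 to 18.6 at 72 h in shIRE1 clone 1, and 8.68 to 8.92 and 16.8 to 18.0 in clone 3. It was 6.27 to 7.15 and 6.98 to 7.12 CPM in shXBP1 clone 1, and 13.4 to 16.1 and 7.51 to 15.9 in clone 18 (15.1 to 15.9 at 72 h without the library in question). The part of these markers in the transporter values was not tested. SLC7A5P1, a pseudogene of SLC7A5, reached 1.07 CPM at most and SLC7A5P2 was listed at 0 in every library. SLC7A11-AS1, which overlaps 8.97% of the exon bases of SLC7A11 on the other strand, reached 0.617 CPM.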

How the data were processed

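Raw counts for 58302 genes in 48 libraries were deposited by the authors, as was a table of log2 CPM for 18401 genes, which equals edgeR's TMM-scaled values with a prior count of 2. The submitters' processing notes name GSNAP, R 4.1.3, edgeR 3.32.1, limma 3.46.0 and GRCh37 (hg19), with no role. Whether strand was used in counting is not given in the sources used here. The files hold no coordinates, and gene lengths are merged exons of GENCODE on GRCh38.

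Each clone's 12 libraries were fitted with edgeR 4.0.16 (R 4.3.3) after filterByExpr (minimum count 10) and TMM scaling, with a quasi-likelihood F test of each time against 0 h, adjusted by Benjamini-Hochberg over all genes tested (threshold 0.05). Differences between responses, and between clones at 0 h, came from 1 model of all 48 libraries with 16 group means. CPM per library was computed with the same TMM factors. Ratios and sums were compared with two-sided exact permutation tests. The fits were tested on simulated data. Alternatives were RLE factors, no filter, DESeq2 1.42.0, limma 3.58.1 on the log2 table, other sets of libraries, a replicate block, and each library left out. The values of gene lists, ratios and sums without 1 library of shXBP1 clone 18 were added after seeing the data.

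The members and gene lists were chosen with earlier results of these data known. All 10 members are named in each comparison. From the other lists the text names genes called in the same direction in both shIRE1 clones at 72 h with the largest mean change, up to 4 a list, and a set of reference genes. Genes of like course are the 3 with the highest correlation to SLC7A11, SLC7A5 and SLC3A2 among genes with a mean log2 CPM above 1. The values of 1 marker of other cell types and of 1 gene that overlaps a member are not reported here.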

Additional observations from a re-analysis of the deposited data

Results flagged for a closer look

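The response at 72 h differed between the knockdowns for 9 members by the interaction test in the 48-library edgeR model (shIRE1 minus shXBP1, log2 scale), a test in which 28.0% of all genes were higher and 27.4% lower. The values were -1.63 for SLC7A11, -1.11 for SLC1A5, -0.55 for SLC3A2, -0.43 for SLC7A5, -0.36 for SLC38A1, -0.22 for SLC43A1, -0.17 for SLC38A2, 0.38 for SLC7A6 and 0.20 for SLC1A4. SLC1A4 fell in all 4 clones, and further with shXBP1.

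Between the shIRE1 clones the 72 h response differed, in clone 1 minus clone 3, by 1.36 for SLC7A11, 0.78 for SLC43A1, 0.66 for SLC1A5, 0.60 for SLC38A2 and -0.59 for SLC7A6. These members also differed between the clones at 0 h, in the opposite direction, and both differences use the 0 h libraries.

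Between the shXBP1 clones it differed, in clone 1 minus clone 18, by -0.48 for SLC7A5, -0.37 for SLC1A4, 0.31 for SLC38A2 and 0.30 for SLC7A1. Of these, SLC38A2 and SLC7A1 lost their call (0.20 and 0.18) when the library in doubt of clone 18 (72 h, replicate 3) was left out.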

How the results depend on the processing

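No called value changed direction under any alternative run. Counts of members called that moved by more than 1.5 times all came from the shXBP1 clones. With only the 6 libraries compared in the fit, 3 members were called in shXBP1 clone 1 at 24 h (5 with the clone's 12 libraries), and 2, 7 and 1 in clone 18 at 24, 48 and 72 h (1, 3 and 5). Without a filter on low counts, 2 were called in clone 18 at 24 h. Leaving out 1 library at a time gave, at 24, 48 and 72 h, 9 to 9, 8 to 9 and 8 to 9 members in shIRE1 clone 1, 8 to 9, 10 to 10 and 10 to 10 in shIRE1 clone 3, 5 to 6, 5 to 6 and 5 to 7 in shXBP1 clone 1 and 1 to 2, 1 to 5 and 1 to 6 in shXBP1 clone 18. It gave 5 to 7, 8 to 10 and 8 to 9 for shIRE1 minus shXBP1, 5 to 5 and 2 to 5 for the clone differences at 72 h (shIRE1 and shXBP1), and 7 to 8 and 3 to 7 for those at 0 h. These fits change the test for every gene, and most of their shares of all genes called are not given here. The counts thus describe how calls moved and are not a result about the members. The cause of the moves was not tested. Same-numbered libraries deviated together (r over 0.1 in each of 3 pairs, 0.652, 0.365 and 0.371) in 1 of 12 comparisons, shXBP1 clone 1 at 72 h against 0 h, where a replicate block changed no call of a member. Over all comparisons r ran from -0.81 to 0.67 and was over 0.1 in 13 of 36 pairs, so the numbers were not taken as pairs. Elsewhere a replicate block ended the calls of SLC3A2 (-0.37, edgeR adjusted p = 0.0675) at 48 h and SLC7A5 (-0.43, adjusted p = 0.0585) at 72 h in shXBP1 clone 18, of SLC38A2 in shIRE1 minus shXBP1 (-0.17, adjusted p = 0.0628), of SLC7A5 between the shXBP1 clones at 72 h (-0.47, adjusted p = 0.0790) and of SLC3A2 between the shIRE1 clones at 0 h (-0.29, adjusted p = 0.0592), and made that of SLC43A1 between the shXBP1 clones (0.28, adjusted p = 0.0451). SLC38A2 in shIRE1 minus shXBP1 at 72 h was also lost with limma on the log2 table (adjusted p = 0.0540). Each clone is 1 clone with 3 replicates a time, so the tests do not cover the spread between clones of an shRNA.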
